A study of Homo sapiens with 2 samples.

Results

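The 10 genes described here are widely used as direct targets of TAZ: CYR61, CTGF, ANKRD1, NUAK2, IGFBP3, CRIM1, AMOTL2, MYOF, ASAP1 and FJX1. They were taken by gene symbol from a table of 16642 genes, in which CYR61 and CTGF are the older symbols of CCN1 and CCN2. All 10 were in the table, and all 10 were among the 14074 genes that averaged at least 20 normalized counts over both libraries, the minimum used below for a measured gene. The rule takes them by name and not by a measured value, but the 10 were proposed with earlier results of these data known, so their counts describe these libraries and are not independent support.

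The table compares 2 RNA sequencing libraries, 1 per group. The first is from PC9-TAZ4SA, a derivative of the human lung adenocarcinoma cell line PC9 that expresses TAZ4SA, an active mutant of TAZ in which serines that the LATS kinases phosphorylate are replaced by alanine. The second is from the PC9 control. The labels' protocol covers both lines in a single text: PC9 cells received the lentiviral plasmids pLVX-Tet-On Advanced, pLVX-TP-3F-TAZ4SA or both, and sub-confluent cells were given doxycycline at 50 ng/mL for 24 h to switch on TAZ4SA. It does not say whether the control was also given doxycycline, nor whether the TAZ4SA line is a clone or a pool, and the mutant is driven by the construct rather than by the cell's own WWTR1 gene.

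TAZ, the product of WWTR1, is a transcriptional co-activator that does not bind DNA itself. The Hippo kinases LATS1 and LATS2 phosphorylate TAZ and its paralog YAP and so keep them out of the nucleus, whereas unphosphorylated TAZ enters the nucleus and binds the TEAD factors, which recognise the motif GGAATG in promoters and enhancers. Known targets encode secreted matricellular and growth factor-binding proteins, membrane and trafficking proteins, kinases, and members of the angiomotin family that act back on the pathway.

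The promoter sequences are shown first, because the TEAD motif is the feature these genes are usually discussed by. RefSeq promoters on build GRCh38.p14, each reaching from 250 bases before to 50 bases after a start, were matched for 7 of the 10 genes at 8 starts, AMOTL2 having a pair of starts. CYR61, CRIM1 and ASAP1 were not matched. The 250 bases before the start are printed 5′ to 3′ on the gene's strand, with each GGAATG, or CATTCC where the motif lies on the opposite strand, in capitals. Promoters of 4 genes with a match and of IGFBP3, which has none, are given. CTGF lies at chr6:131951373-131951622, ANKRD1 at chr10:90921088-90921337, NUAK2 at chr1:205321746-205321995, AMOTL2 (its second start) at chr3:134374448-134374697 and IGFBP3 at chr7:45921273-45921522, all on the minus strand.
CTGF: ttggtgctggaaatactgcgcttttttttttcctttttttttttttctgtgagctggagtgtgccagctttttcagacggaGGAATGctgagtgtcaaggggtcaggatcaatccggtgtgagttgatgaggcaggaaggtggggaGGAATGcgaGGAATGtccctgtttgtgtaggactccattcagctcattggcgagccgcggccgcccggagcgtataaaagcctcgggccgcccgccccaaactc
NUAK2: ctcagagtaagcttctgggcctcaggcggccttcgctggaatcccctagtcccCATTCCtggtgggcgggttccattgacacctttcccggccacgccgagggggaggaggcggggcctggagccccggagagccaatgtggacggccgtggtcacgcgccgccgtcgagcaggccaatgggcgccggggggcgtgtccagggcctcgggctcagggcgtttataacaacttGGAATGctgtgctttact
ANKRD1: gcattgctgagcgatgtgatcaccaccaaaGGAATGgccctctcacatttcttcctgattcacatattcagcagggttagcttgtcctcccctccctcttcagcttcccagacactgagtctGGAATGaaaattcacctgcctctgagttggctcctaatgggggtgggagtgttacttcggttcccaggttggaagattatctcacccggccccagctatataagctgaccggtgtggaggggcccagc
AMOTL2: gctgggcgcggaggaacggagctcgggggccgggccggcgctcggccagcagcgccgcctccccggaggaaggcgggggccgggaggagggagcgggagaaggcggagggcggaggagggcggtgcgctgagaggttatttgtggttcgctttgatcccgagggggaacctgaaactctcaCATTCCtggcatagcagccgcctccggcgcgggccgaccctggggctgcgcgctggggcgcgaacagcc
IGFBP3: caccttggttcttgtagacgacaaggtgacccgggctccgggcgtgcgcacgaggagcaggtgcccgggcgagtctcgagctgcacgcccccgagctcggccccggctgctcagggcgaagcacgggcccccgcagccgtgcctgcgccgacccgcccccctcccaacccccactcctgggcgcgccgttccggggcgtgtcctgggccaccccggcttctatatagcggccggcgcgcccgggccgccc

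Searching both strands of the 300 bases, CTGF held 3 matches to the TEAD motif, beginning 169, 104 and 95 bases before the start. ANKRD1 held 2, beginning 220 and 128 bases before it, and NUAK2 held 2, at 197 bases on the opposite strand and at 18 bases. AMOTL2 held 1, on the opposite strand 69 bases before its second start, and none at its first start. The promoters of IGFBP3, MYOF and FJX1 held none, which says only that these letters are not in this window. Of 35116 RefSeq promoters of the same length, 14.0% held at least 1 match, 1.37% at least 2 and 0.128% at least 3. Other motifs were sparse. The AP-1 motif TGANTCA was found in ANKRD1 alone, 195 bases before the start (7.71% of all promoters). The letters TATAAA were found in CTGF and, on the opposite strand, in NUAK2, 32 and 31 bases before the start (11.5% of all promoters). The CArG box of serum response factor was found in none of the 7 genes (1.29% of all promoters). No match to one motif overlapped a match to another. These matches describe sequence and are not measured binding sites.

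**Figure D1:**
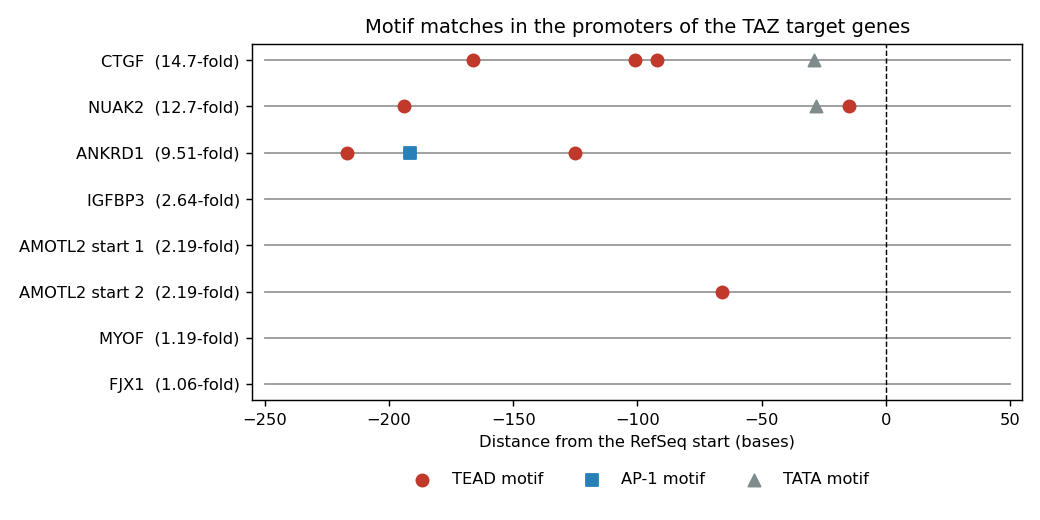
Matches to the TEAD, AP-1 and TATAAA motifs (symbols) along the promoters of the 7 matched genes; the horizontal axis is the distance from the RefSeq start in bases, and genes run down the page by fold difference, TAZ4SA over control. CTGF has 3 TEAD matches, NUAK2 and ANKRD1 have 2 each, AMOTL2 has 1 at its second start, and IGFBP3, MYOF and FJX1 have none.

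Both libraries had values of an epithelial line and were deep. The recovered depth was 29668388 reads in TAZ4SA cells and 47684754 in control cells. All 8 epithelial markers examined were measured, with a summed normalized count of 367738 in TAZ4SA cells and 308824 in control cells. Single markers varied widely, from MUC1 (123 in TAZ4SA cells and 106 in control cells) to EGFR (96583 and 76843). Of the epithelial markers, 0 of 8 differed by 1.5-fold (background 4.16% higher and 4.44% lower), a count too small to set apart from the background. Of the markers of other cell types, LYZ (leukocytes) had 2 reads in TAZ4SA cells and 8 in control cells, VWF (endothelium) had 5 and 20, and CDH5 (endothelium) had a normalized count of 1362 and 1589; the others were not analysed here. WWTR1, the gene of TAZ, had a normalized count of 15628 in TAZ4SA cells and 4933 in control cells. How much of the WWTR1 count comes from the construct and how much from the cell's own gene was not tested. The partner genes TEAD1, TEAD2, TEAD3 and TEAD4 were 1.31-fold, 1.26-fold, 1.05-fold and 1.21-fold higher in TAZ4SA cells, with the interval of TEAD3 including a ratio of 1, and YAP1 was 1.12-fold lower. In bulk RNA a change in the number of cells that express a gene cannot be told apart from a change in RNA per cell.

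All 10 target genes had a log2 ratio above 0, against 50.0% of all measured genes, but they divided into a strongly higher, a moderately higher and a barely different set. At least 2-fold higher were 6 of 10, where 1.9% of all measured genes reached that mark. At least 4-fold higher were 4 of 10 (background 0.426%), and at least 1.5-fold higher were 7 of 10 (background 4.16%). None was 1.5-fold lower (background 4.44%). CTGF, at 6.30 normalized counts in control cells, passed the minimum level only through TAZ4SA cells. The median log2 ratio of the 10 was 1.26, with an SD among genes of 1.45, beside a median over all measured genes of 0.00019. A gene is counted only where the 95% interval of its ratio, computed from the reads of both libraries, excludes a ratio of 1. With 1 library per group the interval covers counting error only, the spread between cultures is unknown, and no p-value can be given.

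**Figure D2:**
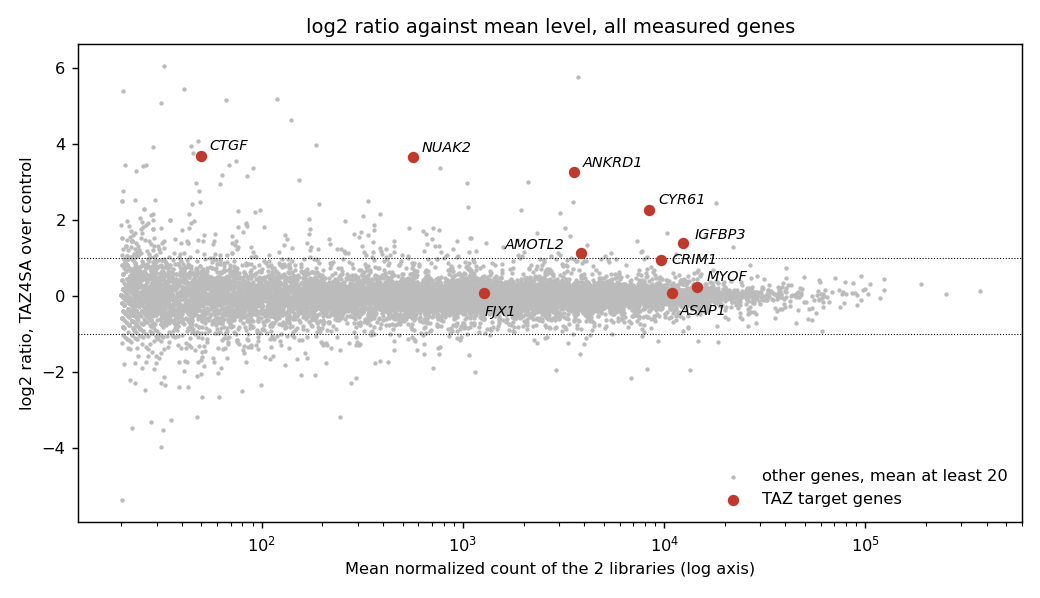
log2 ratio, TAZ4SA over control, against the mean normalized count of the 2 libraries on a log axis, for the 14074 measured genes (grey) and the 10 target genes (red); dotted lines mark a 2-fold difference. CTGF, NUAK2, ANKRD1 and CYR61 lie at the upper edge of the cloud, whereas MYOF, ASAP1 and FJX1 lie within it.

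Among the secreted matricellular proteins, both CCN genes were higher, at very different levels. CYR61, which encodes a heparin-binding protein that engages integrins, had a normalized count of 13953 in TAZ4SA cells (9619 reads) and 2904 in control cells (3228 reads). That is a 4.80-fold difference with a counting interval of 4.62 to 5.001, and 46 of the 14074 measured genes had a higher log2 ratio. CTGF, its relative in the same family and a commonly used reporter of YAP and TAZ activity, had 92.8 in TAZ4SA cells and 6.30 in control cells, from 64 and 7 reads. Its 14.7-fold difference was the highest of the 10, yet its interval ran from 6.76 to 38.1, so its place above NUAK2 and ANKRD1 is not resolved at this depth. On log2(normalized count + 1) the ratio of CTGF was 3.68; in the authors' deposited table, with no pseudocount, it is 3.88. Per kilobase of transcript, CYR61 stood 154 times above CTGF in TAZ4SA cells and 471 times above it in control cells. The control value is imprecise, resting on 7 CTGF reads. The third CCN gene analysed, NOV, had 22 reads in TAZ4SA cells and 24 in control cells, and its interval of 0.790 to 2.75 included a ratio of 1.

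IGFBP3, a secreted carrier that binds insulin-like growth factors in the extracellular space, had the highest level of the 10 in both libraries per kilobase of its longest transcript, though not with the union of its exons as the length. Its normalized count was 18057 in TAZ4SA cells and 6850 in control cells, a 2.64-fold difference (2.56 to 2.71). None of the 5 related IGFBP genes analysed was at least 1.5-fold higher (background 4.16%), a count too small to set apart from the background. IGFBP5 was lower in TAZ4SA cells, at 16.0 against 106 in control cells (11 and 118 reads), or 6.65-fold (3.59 to 13.7). It passed the minimum level only through control cells. IGFBP2 was 1.51-fold lower and IGFBP6 1.36-fold lower. The intervals of IGFBP1 and IGFBP4 included a ratio of 1.

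ANKRD1, an ankyrin-repeat protein first known from heart muscle, where it sits in the sarcomere and acts as a transcriptional cofactor, was far higher with TAZ4SA while also abundant. It had a normalized count of 6443 in TAZ4SA cells (4442 reads) and 678 in control cells (753 reads), a 9.51-fold difference (8.80 to 10.3), and 23 measured genes had a higher log2 ratio. Its muscle relative ANKRD2 was also higher, at 325 in TAZ4SA cells and 60.3 in control cells, from 224 and 67 reads, or 5.39-fold (4.09 to 7.19). ANKRD23, the third member of that family, had 14 and 30 reads, with an interval that included a ratio of 1. ANKRD2 was the only 1 of 18 measured family relatives of the 10 genes, a list that includes FAT1 as a pathway partner, to be at least 1.5-fold higher, beside 4.16% of all measured genes.

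NUAK2, an AMPK-related kinase that acts on actomyosin, was low in control cells and much higher with TAZ4SA. Its normalized count was 1040 in TAZ4SA cells and 81.9 in control cells, from 717 and 91 reads. The difference was 12.7-fold, and its interval of 10.2 to 16.0 overlapped those of CTGF and ANKRD1. Kinases of the same group differed less: NUAK1 was 1.29-fold higher (1.21 to 1.37), SIK1 was 1.14-fold higher (1.03 to 1.25) and SIK2 was 1.27-fold lower (1.21 to 1.32).

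AMOTL2, an angiomotin family scaffold at cell junctions that binds YAP and TAZ and restrains them, had a normalized count of 5278 in TAZ4SA cells and 2413 in control cells. The difference was 2.19-fold (2.08 to 2.30). The other angiomotins had ratios on the other side of 1, AMOTL1 being 1.13-fold lower and AMOT 1.17-fold lower, with intervals that excluded 1.

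**Figure D3:**
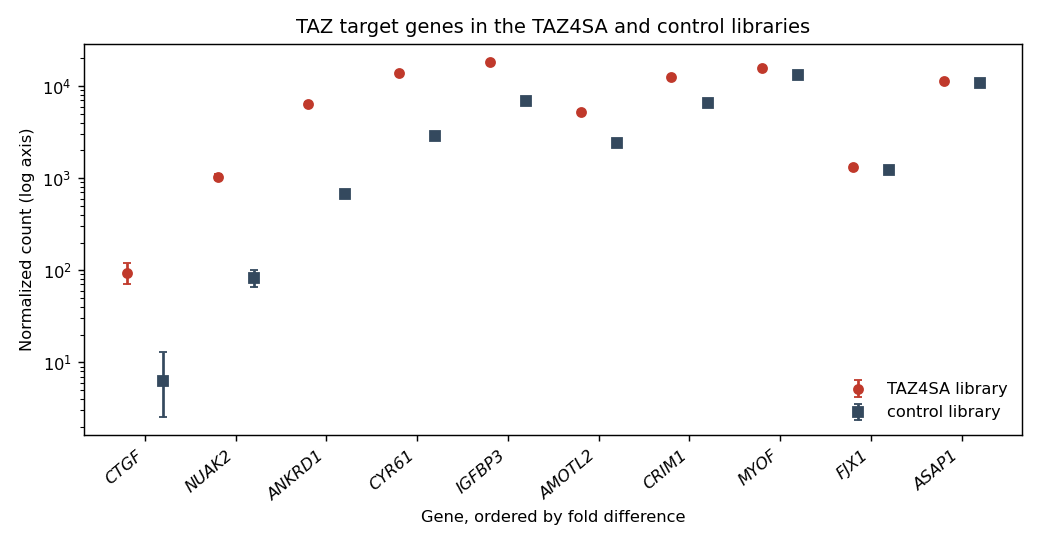
Normalized count on a log axis of each target gene in the TAZ4SA (circles) and control (squares) libraries, 1 library each, with 95% Poisson counting intervals; genes are ordered by fold difference. The libraries are far apart for CTGF, NUAK2, ANKRD1 and CYR61 and nearly level for MYOF, FJX1 and ASAP1, and only CTGF has a wide interval, in control cells.

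The membrane and trafficking genes were higher by less. CRIM1, a membrane protein with cysteine-rich repeats that binds bone morphogenetic proteins, had a normalized count of 12630 in TAZ4SA cells and 6596 in control cells. At 1.91-fold (1.86 to 1.98) it was the only gene of the 10 between 1.5-fold and 2-fold. CRIM1 overlaps FEZ2 on the opposite strand, with 1033 reads in TAZ4SA cells and 1649 in control cells. These reads are not scaled for depth, and the control library was 1.61-fold deeper. The sources used here do not say whether counting used strand. MYOF, a ferlin that serves membrane fusion and repair, had 15829 in TAZ4SA cells and 13350 in control cells, 1.19-fold higher (1.16 to 1.22); 2162 measured genes had a higher log2 ratio. Its relative DYSF, which encodes dysferlin, was 1.25-fold lower. Of the relatives of CRIM1, KCP was 1.29-fold lower (1.02 to 1.64) and BMPER had 6 reads in TAZ4SA cells and 2 in control cells.

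ASAP1 and FJX1 were close to level between the libraries. ASAP1, a GTPase-activating protein for ARF proteins at focal adhesions, had a normalized count of 11276 in TAZ4SA cells and 10679 in control cells. Its 1.06-fold difference (1.03 to 1.09) excluded 1 on counting error, but 4956 measured genes had a higher log2 ratio. The paralog ASAP2 was 1.10-fold higher (1.06 to 1.14), and the interval of ASAP3 (0.793 to 1.13) included a ratio of 1. FJX1, the human counterpart of four-jointed, a Drosophila Golgi kinase that modifies the cadherins Fat and Dachsous, had 1310 in TAZ4SA cells and 1235 in control cells. Its interval, 0.974 to 1.15, included a ratio of 1, the only such case among the 10. Of the Fat and Dachsous genes, FAT1 was 1.21-fold higher (1.18 to 1.25), and DCHS1 had only 10 and 28 reads.

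The order of the genes by level differed between the libraries. Levels between genes are compared as normalized counts per kilobase of the longest annotated transcript. In the TAZ4SA library the order was IGFBP3 (7487), CYR61 (6093), ANKRD1 (3256), MYOF (2356), CRIM1 (2136), ASAP1 (1777), AMOTL2 (1168), FJX1 (535), NUAK2 (302) and CTGF (39.7), and no neighbours had overlapping counting intervals. In the control the order was IGFBP3 (2840), MYOF (1987), ASAP1 (1683), CYR61 (1268), CRIM1 (1116), AMOTL2 (534), FJX1 (504), ANKRD1 (342), NUAK2 (23.8) and CTGF (2.69), and only AMOTL2 and FJX1 had overlapping intervals. ANKRD1 therefore stood at place 3 with TAZ4SA and at place 8 in control cells. CYR61 stood at place 2 with TAZ4SA and at place 4 in control cells. The span from the highest to the lowest gene was 189-fold in TAZ4SA cells and 1055-fold in control cells. The control span is imprecise, since the counting interval of CTGF there was 1.08 to 5.55 per kilobase. Summed over the 10 genes, the level per kilobase was 25149 in TAZ4SA cells and 10301 in control cells, or 2.44-fold. CYR61, IGFBP3 and ANKRD1 made up 83.4% of that difference, whereas CTGF made up 0.249% and NUAK2 1.88%. With the union of all exons as the length, CYR61 moved above IGFBP3 in TAZ4SA cells, and in control cells MYOF moved above IGFBP3 and FJX1 above AMOTL2.

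The 10 genes belong to a published signature of 22 YAP and TAZ targets, and the other 12 genes were examined in the same way. Of these, 10 were measured and FOXF2 and RBMS3 were not analysed here. At least 1.5-fold higher were 5 of 10 (background 4.16%), none was that much lower (background 4.44%), and the median log2 ratio was 0.64. GADD45A, a stress-response gene, was 2.96-fold higher, and LATS2, a kinase that phosphorylates TAZ, 2.75-fold. F3, encoding tissue factor, was 2.45-fold higher, the receptor kinase gene AXL 2.27-fold and the phosphatase gene PTPN14 1.76-fold. TGFB2, ARHGEF17, CCDC80 and NT5E had ratios between 1.12 and 1.38, and the interval of DOCK5 (0.960 to 1.03) included 1. None of these genes reached 4-fold (background 0.426%).

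A second list held 20 further genes reported elsewhere as YAP or TAZ targets, of which 18 were measured. At least 1.5-fold higher were 9 of 18 (background 4.16%) and at least 1.5-fold lower was 1 of 18 (background 4.44%). Of the 18, 13 had log2 ratios above 0 and 5 below, with a median of 0.63. NPPB, the gene of the natriuretic peptide B precursor, had 28 reads in TAZ4SA cells and 0 in control cells. With control cells set to a floor of 3 reads, NPPB was 15.0-fold higher. That value is not a lower bound, since the lower end of its 95% counting interval was 11.4-fold. GLI2, a transcription factor of Hedgehog signalling, was 10.8-fold higher (6.46 to 19.2) on 114 and 17 reads. At 0 and 15.3 normalized counts in control cells, NPPB and GLI2 passed the minimum level only through TAZ4SA cells. EDN1, encoding the vasoconstrictor endothelin-1, was 3.06-fold higher (2.55 to 3.68). The cardiac troponin gene TNNT2, below the minimum level, had 13 reads in TAZ4SA cells and 5 in control cells. The 1 gene at least 1.5-fold lower, named after its value was seen, was WNT5A, a non-canonical Wnt ligand, at 390 in TAZ4SA cells and 1125 in control cells, or 2.88-fold lower (2.52 to 3.30).

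**Figure D4:**
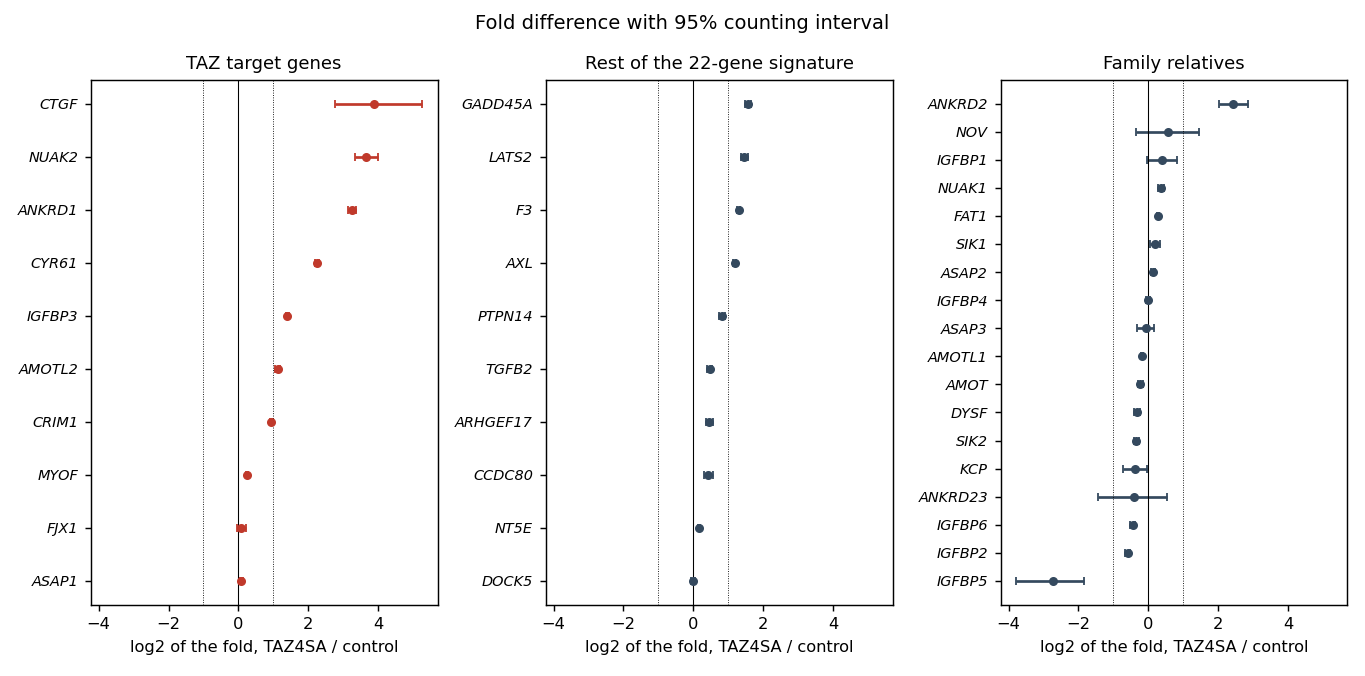
log2 of the fold, TAZ4SA over control, with 95% counting intervals, for the 10 target genes (left), the 10 measured genes of the rest of the 22-gene signature (middle) and the 18 measured family relatives (right); dotted lines mark 2-fold. Of the targets 6 lie past 2-fold, of the rest of the signature 4, and of the relatives ANKRD2 above and IGFBP5 below. FAT1, a pathway partner of FJX1 and not of its family, is plotted with the relatives.

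The family relatives, taken by relation to the 10 genes and not for being targets, lay on both sides of a ratio of 1. For FJX1 the list holds the Fat and Dachsous genes, which are partners in its pathway and not of its family. Of these FAT1 is among the measured relatives counted below. AMOTL1 is among them and is also in the second list of 20 further genes. Of 30 relatives 20 were analysed here and 18 measured, and 7 had log2 ratios above 0 and 11 below. Their median log2 ratio was -0.13. Only ANKRD2 was at least 1.5-fold higher (1 of 18, background 4.16%), and IGFBP2 and IGFBP5 were at least 1.5-fold lower (2 of 18, background 4.44%), counts too small to set apart from the background. With only 2 libraries, likeness to the targets can be measured only as the distance between log2 ratios. The 3 other genes nearest to the median of the 10, among those averaging at least 100 normalized counts, were GNB4 at 1.26, UST at 1.25 and SLFN12 at 1.28.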

How the data were processed

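RNA sequencing compared 1 library of PC9-TAZ4SA cells with 1 of control PC9 cells. GRCh37, DESeq2, HTSeq, STAR and Trim Galore appear in the submitters' processing notes with neither version nor role. The deposited signal values are read counts scaled by the authors with 1 factor for each library, 0.689 for TAZ4SA and 1.11 for the control, since 100% of values in both columns were whole multiples of a step within 0.01 reads. Multiplying back gave the reads. The deposited log2 fold change differs from the columns' own log2 ratio by at most 0.000136 over the 16584 genes above 0 in both libraries.

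From these values log2(normalized count + 1) ratios, TAZ4SA over control, were computed. Folds are ratios of normalized counts, with exact (Clopper-Pearson, conditional binomial) 95% intervals from the reads. The intervals cover counting error only, since there is 1 library per group. Reads are not independent molecules, so the intervals may be too narrow even for that error. Genes averaging at least 20 normalized counts were called measured. With 1 library per group no count test was possible, so 0 genes were called by one. The members and lists were chosen with earlier results of these data known. Named genes were the 10 targets, WWTR1, YAP1, TEAD1 to TEAD4, the rest of the signature, the family relatives, 4 genes of the further list with the highest absolute log2 ratio, measured or not, and 3 genes nearest to the targets' median; WNT5A and FEZ2 were named outside this rule, and the cell type markers come from their own list. Transcript lengths came from GENCODE 29 (GRCh38) by gene identifier, and promoters from RefSeq. The computation of intervals and calls was checked on simulated Poisson counts. These hold no spread between cultures, so they say nothing about that spread. Alternatives changed scaling, pseudocount, filter, threshold, gene length and promoter window. Scaling factors came from DESeq2 1.42.0 and edgeR 4.0.16 under R 4.3.3; everything else used scipy 1.17.1, pandas 2.3.3 and numpy 2.4.6 under Python 3.11.15, with matplotlib 3.10.9 for plots.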

Additional observations from a re-analysis of the deposited data

How the results depend on the processing

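The log2 ratios of the 10 target genes kept their direction and stayed within their counting intervals in all 70 values run (7 alternatives per gene: TMM, median of ratios, upper quartile or total reads as scaling, and pseudocounts of 0.1, 0.5 and 5). CTGF moved furthest, to 3.11 with a pseudocount of 5 and 3.86 with 0.1. The number of targets at least 2-fold higher was 6 without a filter, with TMM or with the interval bound itself past 2-fold, 5 with a mean of at least 100 (which removes CTGF), 7 at 1.5-fold and 4 at 4-fold. The share of all measured genes moved by construction, to 0.975% with a mean of at least 100, 4.16% at 1.5-fold, 0.426% at 4-fold and 0.917% where the interval bound had to reach 2-fold. In the rest of the signature 5 genes were at least 1.5-fold higher under the 3 alternatives run. With union exon length, 6 of 10 genes kept their place in the control order and 8 in the TAZ4SA order. The TEAD motif was in 11.9% of promoters over 250 bases. No paired analysis was possible because there is only 1 library on each side, and for the same reason leaving out a replicate was not run. Depth limits CTGF most, with 7 control reads.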
